A study of Homo sapiens with 4 samples.

Results

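Krüppel-like factors (KLFs) are transcription factors that bind GC-rich and CACCC-type sites in gene promoters through zinc fingers at the end of the protein, and they share these sites with the related SP factors. Outside the zinc fingers the members differ. One branch (KLF2, KLF4, KLF6 and KLF7) mostly activates transcription, another (KLF3 and KLF12) recruits the corepressor CtBP, and a further branch (KLF9, KLF10, KLF11 and KLF13) recruits the corepressor SIN3A. Several members are known as genes that respond quickly to stress, growth factors or hormones, and KLF7 is best known for its part in axon growth of neurons.

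The set described here holds 10 KLF genes, taken by symbol from the 57820 genes of the count tables: KLF2, KLF3, KLF4, KLF6, KLF7, KLF9, KLF10, KLF11, KLF12 and KLF13. All 10 were matched to a gene identifier, and 8 had enough counts to be tested. KLF2 and KLF4 did not. Because the KLF genes range widely in genomic length, short and long members were set against each other by their annotated span, with 20 kb as the limit. KLF2, KLF4, KLF6, KLF10 and KLF11 fell under it, and KLF3, KLF7, KLF9, KLF12 and KLF13 above it.

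Total RNA from SY5Y cells, a human neuroblastoma (NB) cell line labelled as MYCN wild type, was sequenced 12 h after treatment with SGSS05-NS or with the solvent DMSO. The study examined SETD8 (gene symbol KMT5A), a histone and p53 methyltransferase, and describes a compound named SGSS05-NS3 as a covalent inhibitor of this enzyme. Whether the SGSS05-NS of the labels is the same compound is not settled here. The labels give a dose of 3 μM, while the methods name a lower dose for RNA sequencing of this cell line and other passages the same dose as the labels, so the dose is not settled either. There were 2 libraries per condition, described as independent biological replicates, and all 4 come from 1 cell line with no genetic change beyond those of the line itself. Between 21463105 and 25350204 fragments (read pairs counted once) fell on genes in each library. In bulk RNA, less RNA of a gene per cell and fewer cells that express it cannot be told apart.

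The libraries carried the markers of NB cells. The summed level of 10 neuroblast markers was 4168 and 4499 CPM (counts per 1000000 counts of the library, scaled with edgeR's TMM method) with DMSO and 2618 and 2575 CPM with SGSS05-NS, and 6 of the 9 markers tested were called lower (edgeR adjusted p under 0.001), against 8.14% of all genes tested. TH, which encodes tyrosine hydroxylase, had at most 2 fragments in any library. The summed level of 10 markers of other cell types lay between 5.86 and 8.08 CPM in all 4 libraries, and DCN was at 0 in each. The share of fragments on no annotated exon of the counted strand was 12.4% and 12.3% with DMSO and 16.1% and 15.3% with SGSS05-NS. The part of these shifts in the results below was not tested. KMT5A itself was at 54.6 and 56.8 CPM in the controls and at 82.8 and 82.9 CPM after treatment, a rise of 0.57 on the log2 scale (SE 0.09, edgeR adjusted p = 0.00037).

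To ask which KLF genes changed with the compound, edgeR's quasi-likelihood test was fitted on 16468 genes, and a gene was called at a Benjamini-Hochberg adjusted p under 0.001. SE stands for the standard error on the log2 scale. Of the 8 KLF genes tested, 2 were called higher with SGSS05-NS (KLF6 and KLF9), where 6.37% of all genes tested were, and 2 were called lower (KLF7 and KLF12), where 8.14% of all genes were. KLF12 showed the largest change among the 8 tested. The remaining 4 tested members (KLF3, KLF10, KLF11 and KLF13) did not pass the threshold. In 5 of the 8, both SGSS05-NS libraries lay above both DMSO libraries, an order found for 37.8% of all genes tested, and in 3 of the 8 both lay below, as for 36.9% of all genes.

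**Figure D1:**
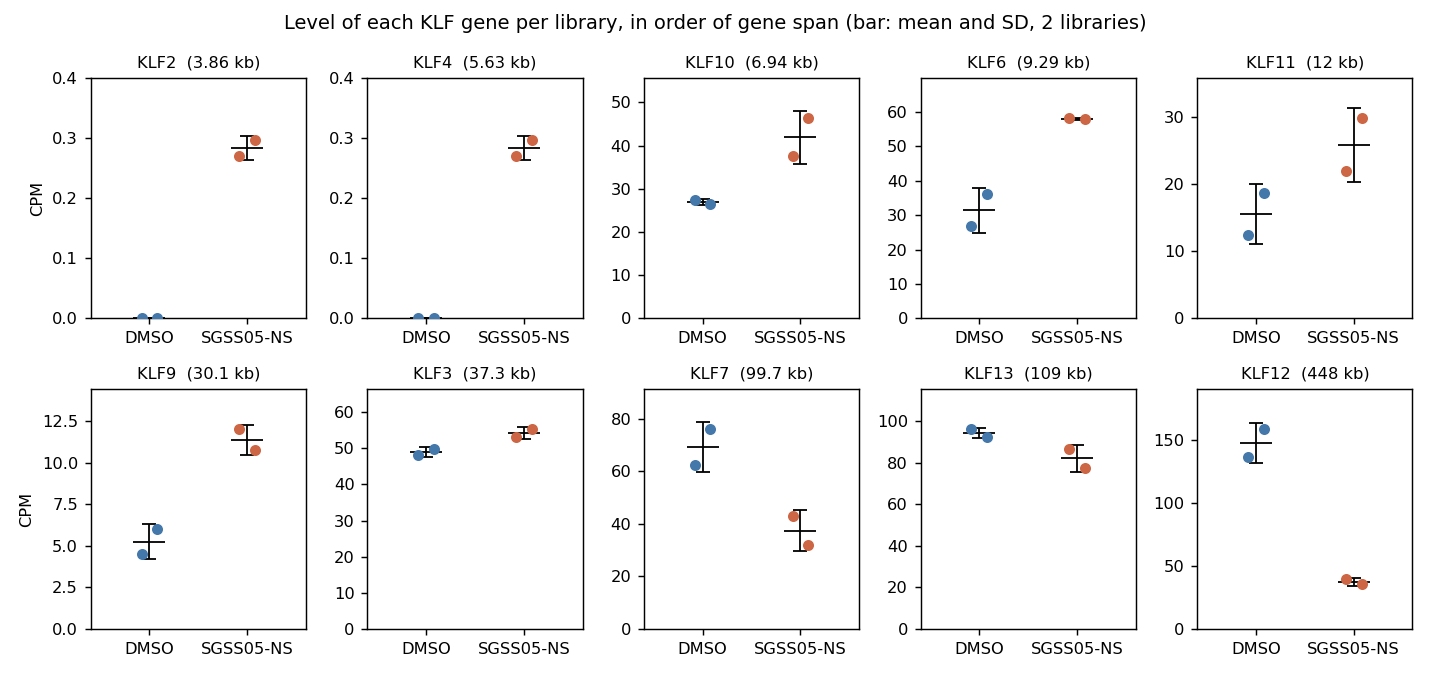
Level of each of the 10 KLF genes in CPM (y axis, from 0) in the DMSO and SGSS05-NS libraries (x axis), with panels in order of annotated gene span. Points are single libraries, and bars give the mean and SD of 2 libraries. KLF2 and KLF4 are at 0 with DMSO, and KLF12, the gene of the longest span, drops from 136 and 158 CPM to 39.7 and 35.3 CPM.

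The DNA just upstream of the tested member with the largest rise (KLF9), the one with the largest fall (KLF12) and the short member called higher (KLF6) is shown because these genes moved in different directions. Sequences are from the RefSeq promoter table (GRCh38.p14). In it 8 of the 10 members were matched, KLF3 had no entry and KLF10 was not looked up. Each sequence was sought only on its own chromosome and strand of GRCh37, the build of the count tables, and was found there at a single place. They run 5′ to 3′ on the minus strand, on which all 3 genes lie, and end at the base before the annotated gene. Capitals mark GC boxes, CACCC boxes and E-boxes on either strand.
KLF6 (chr10:3827474-3827651): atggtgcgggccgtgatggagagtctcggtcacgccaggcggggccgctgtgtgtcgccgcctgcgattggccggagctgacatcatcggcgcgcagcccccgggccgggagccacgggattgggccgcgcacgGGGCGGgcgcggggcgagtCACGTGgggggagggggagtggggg
KLF9 (chr9:73029574-73029823): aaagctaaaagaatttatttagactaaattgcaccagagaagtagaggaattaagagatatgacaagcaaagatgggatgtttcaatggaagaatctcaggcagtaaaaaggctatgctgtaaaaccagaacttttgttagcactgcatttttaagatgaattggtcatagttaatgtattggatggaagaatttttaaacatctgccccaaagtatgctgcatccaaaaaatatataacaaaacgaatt
KLF12 (chr13:74708542-74708791): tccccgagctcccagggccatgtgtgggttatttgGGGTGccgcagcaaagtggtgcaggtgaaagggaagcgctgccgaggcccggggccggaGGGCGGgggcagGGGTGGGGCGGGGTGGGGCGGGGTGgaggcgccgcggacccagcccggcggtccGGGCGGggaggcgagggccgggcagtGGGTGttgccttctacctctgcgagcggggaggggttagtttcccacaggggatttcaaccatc

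The 3 windows differ in composition. G and C made up 76.4% of the 178 bases shown for KLF6, 32.4% of the 250 bases for KLF9 and 72.0% of the 250 bases for KLF12. The KLF12 window held 4 GC boxes and 5 CACCC boxes, some of which share bases, and these are the sites that KLF and SP factors are known to bind. The KLF6 bases shown held 1 GC box and 1 E-box, while the full window of 250 bases, part of which is transcribed and not shown, held 2 GC boxes, and the KLF9 window held none of the sequences searched. In the 250 bases before the start of 35116 RefSeq promoters, a GC box, spelled GGGCGG, was found in 42.6%. A CACCC box, whose name gives its letters, was found in 54.7%, and an E-box, spelled CACGTG, in 6.34%. Further motifs were searched on both strands and had no match in these 3 windows. The cyclic AMP response element, spelled TGACGTCA, was found in 1.65% of all promoters. Its shorter part, spelled TGACG, lies within it and was found in 21.2%. The AP-1 site, read as TGANTCA with any base at N, was found in 6.57% of them. The core of the heat shock element, spelled GAANNTTC, was found in 5.78%, and the TATA box, spelled TATAAA, in 10.7%. The CArG box, bound by serum response factor, was found in 1.16%. These are matches of letters in short windows and not measured binding sites, and RefSeq lists further start sites for KLF12, whose use is not seen in counts per gene.

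Among the activating members, KLF2 and KLF4 were at or near the limit of detection. KLF2 (ENSG00000127528.5), known from quiescent endothelium and T cells, lies on chromosome 19 of GRCh37 from 16435637 to 16439496 and spans 3.86 kb. KLF4 (ENSG00000136826.10), a factor used to reprogram cells to pluripotency, lies on chromosome 9 from 110247133 to 110252763 and spans 5.63 kb. Each of these genes had 0 fragments in both controls and 6 and 7 fragments after treatment, the same numbers by gene. Against a floor of 3 fragments over both DMSO libraries, or 0.0619 CPM, the pooled level with SGSS05-NS was at least 4.59-fold higher for KLF2 and for KLF4, a value that leaves out the counting error of the treated fragments. With that error included, the lower exact binomial 95% limit of the ratio was 3.23. Without a filter on low counts both entered the test, with an adjusted p of 0.0018 (edgeR), so they were not called there either.

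KLF6 (ENSG00000067082.10), a widely expressed activator that responds to injury and growth factors, lies on chromosome 10 from 3818188 to 3827473 and spans 9.29 kb. Its level was 26.8 and 36.1 CPM with DMSO and 58.2 and 57.9 CPM with SGSS05-NS. The treated libraries lay close together and well above the controls. KLF6 rose 1.85-fold, or 0.89 on the log2 scale (SE 0.13, edgeR adjusted p = 0.00019).

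KLF7 (ENSG00000118263.10), the closest relative of KLF6 and a factor of growing neurons, lies on chromosome 2 from 207938861 to 208038580 and spans 99.7 kb. It was at 62.4 and 76.1 CPM with DMSO and at 42.9 and 31.8 CPM with SGSS05-NS. Both conditions varied between their libraries, and the ranges did not overlap. The level fell by 0.89 on the log2 scale (SE 0.14, edgeR adjusted p = 0.00034) to 0.540 of that with DMSO. The call was lost when libraries were scaled by their size alone (log2 fold change -0.85, edgeR adjusted p = 0.0016).

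Among the members of the SIN3A branch, KLF9 showed the largest rise. KLF9 (ENSG00000119138.3), a target of glucocorticoid and thyroid hormone receptors, lies on chromosome 9 from 72999520 to 73029573 and spans 30.1 kb. Its level was 4.50 and 5.99 CPM with DMSO and 12.0 and 10.8 CPM with SGSS05-NS. Both treated libraries were well above both controls. KLF9, one of the members of 20 kb and over, rose 2.17-fold, or 1.12 on the log2 scale (SE 0.18, edgeR adjusted p = 0.00034).

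KLF10 and KLF11, both described as genes induced by TGF-β, missed the threshold, although the likelihood ratio test called both and DESeq2 called KLF10. KLF10 (ENSG00000155090.10), on chromosome 8 from 103661012 to 103667953 with a span of 6.94 kb, was at 27.4 and 26.4 CPM with DMSO and at 37.5 and 46.3 CPM with SGSS05-NS. The estimate was 0.64 on the log2 scale (SE 0.12, edgeR adjusted p = 0.0011), just outside the limit. KLF11 (ENSG00000172059.6), on chromosome 2 from 10182976 to 10194963 with a span of 12.0 kb, was at 12.3 and 18.6 CPM with DMSO and at 21.9 and 29.7 CPM with SGSS05-NS. The 2 conditions did not overlap in KLF11, but its libraries were spread within each, and the estimate on the log2 scale was 0.74 (SE 0.19, edgeR adjusted p = 0.0068). The 95% intervals of both changes, 0.38 to 0.90 for KLF10 and 0.34 to 1.15 for KLF11, lay above 0. KLF10 passed the threshold when DMSO replicate 1, DMSO replicate 2 or SGSS05-NS replicate 1 was left out (adjusted p = 0.00022, 0.00092 and 2.0e-05, edgeR). KLF11 passed it without DMSO replicate 2, at a log2 fold change of 1.05 (adjusted p = 4.8e-08, edgeR), and without SGSS05-NS replicate 1, at 0.94 (adjusted p = 0.00014, edgeR). It did not pass without DMSO replicate 1, at 0.46, or without SGSS05-NS replicate 2, at 0.51.

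KLF13 (ENSG00000169926.5), known from T cells as an activator of the chemokine gene CCL5, lies on chromosome 15 from 31619038 to 31727868. It spans 109 kb in the annotation used here and 51.1 kb by its longest coding transcript. The level was 96.2 and 92.6 CPM with DMSO and 86.7 and 77.5 CPM with SGSS05-NS. The log2 fold change of -0.20 (SE 0.10, edgeR adjusted p = 0.10) had a 95% interval from -0.41 to 0.01.

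In the CtBP branch the members parted. KLF3 (ENSG00000109787.8), a repressor first known from red blood cells, lies on chromosome 4 from 38665818 to 38703138 and spans 37.3 kb. Its level of 48.1 and 49.9 CPM with DMSO and 53.1 and 55.3 CPM with SGSS05-NS gave a log2 fold change of 0.15 (SE 0.09, edgeR adjusted p = 0.22), with a 95% interval from -0.06 to 0.35. KLF12 (ENSG00000118922.12), described as a repressor of TFAP2A, lies on chromosome 13 from 74260226 to 74708541 and spans 448 kb, the longest of the family members. It was at 136 and 158 CPM with DMSO and at 39.7 and 35.3 CPM with SGSS05-NS. Each treated library was far under each control. The level fell by 1.97 on the log2 scale (SE 0.11, edgeR adjusted p = 1.7e-07), to 0.254 of that with DMSO.

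The median change was above 0 for the short members and below 0 for the long members, although 2 of the 5 long ones, KLF9 and KLF3, had positive values. The 3 tested members under 20 kb (KLF6, KLF10 and KLF11) had a median log2 fold change of 0.74, and the 5 of 20 kb and over had one of -0.20, the value of KLF13, which did not pass. This median lay between -0.29 and -0.12 with single libraries left out, and it was -0.89 when the limit was set at 50 kb. Of all genes tested, those under 20 kb had a median log2 fold change of 0.13 and those of 20 kb and over one of -0.06. Among all 16468 genes it was 0.01. In the whole table, the genes of 100 kb and over stood apart in their calls. Under 20 kb, 7.92% of genes were called higher and 4.56% lower. From 20 to 100 kb the shares were 7.00% and 3.17%, and from 100 kb on they were 1.48% and 27.8%.

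**Figure D2:**
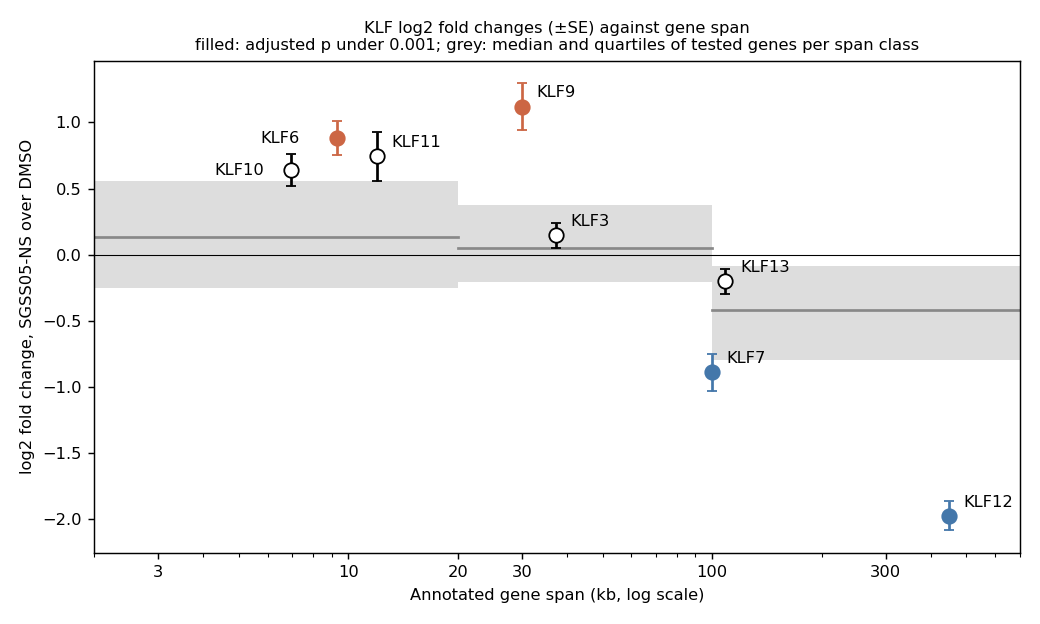
log2 fold change with SGSS05-NS (y axis, bars give the standard error) against the annotated span of the gene in kb (x axis, log scale) for the 8 KLF genes tested. Filled points passed the threshold of 0.001, and the grey bands and lines give the quartiles and median of all tested genes under 20 kb, from 20 to 100 kb and from 100 kb on. KLF9, at 30.1 kb, is the highest point at 1.12, and KLF12, at 448 kb, the lowest at -1.97.

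Set beside genes of like span, some KLF genes lay near the middle and others at an edge. Among 489 tested genes with a span within a factor of 1.5 of that of KLF12, the median log2 fold change was -0.999, and 6.34% had a lower value than KLF12. For KLF7, the 2441 genes of like span had a median of -0.15, and 3.81% were lower than KLF7. KLF13 was close to the middle of its 2344 genes, whose median was -0.17 and of which 47.0% were lower. KLF3 was also near the middle, with 55.8% of 3329 genes lower. KLF9 stood above 93.9% of 3295 genes of like span, whose median was 0.12. For KLF6, KLF10 and KLF11 the share of lower genes was 84.8%, 76.3% and 82.6%. These shares describe where the members lie and are not tests.

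Per kb of exon, a scale on which genes can be compared, KLF12 was the most abundant of the 10 in both DMSO libraries, with 11.8 and 13.7 CPM per kb, followed by KLF13 with 10.2 and 9.82 CPM per kb. This order depends on the length used, since with the length of the canonical transcript KLF13 held 22.8% and KLF12 19.96% of the summed KLF level in DMSO replicate 1. KLF3, KLF10 and KLF7 came next, between 6.49 and 7.91 CPM per kb, with ranges that overlapped. KLF6 was at 4.36 and 5.88 CPM per kb, KLF11 at 2.68 and 4.05, and KLF9 at 0.866 and 1.15. With SGSS05-NS, KLF10 was the most abundant, with 9.81 and 12.1 CPM per kb, ahead of KLF6 with 9.48 and 9.43 and KLF13 with 9.20 and 8.22. KLF3 followed with 7.85 and 8.17 CPM per kb, and KLF11 with 4.78 and 6.47. KLF7 (4.47 and 3.31 CPM per kb) and KLF12 (3.43 and 3.06 CPM per kb) had overlapping ranges, and KLF9 stayed under them at 2.31 and 2.07.

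The summed level of the 10 genes hardly separated the conditions, while its make-up did. The sum was 50.6 and 56.8 CPM per kb with DMSO and 51.5 and 53.0 CPM per kb with SGSS05-NS, so the treated libraries lay between the controls. The members under 20 kb held 28.1% and 29.6% of it with DMSO and 47.1% and 53.2% with SGSS05-NS. KLF12 alone held 23.3% and 24.2% with DMSO and 6.67% and 5.76% with SGSS05-NS. The share of KLF6 was 8.61% and 10.3% with DMSO and 18.4% and 17.8% with SGSS05-NS.

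**Figure D3:**
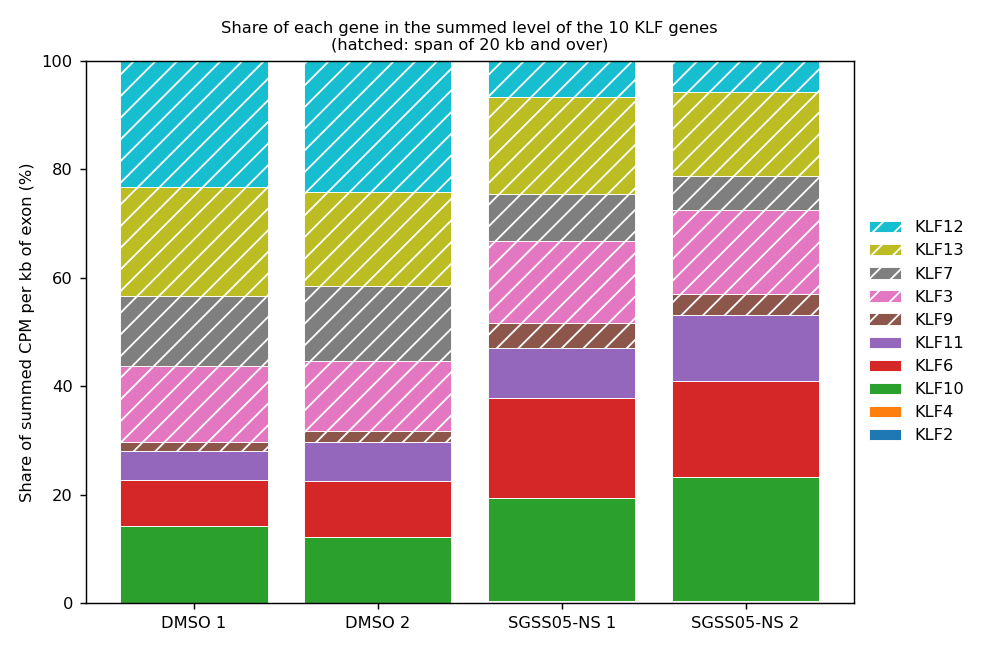
Share of each KLF gene in the summed level per kb of exon of the 10 genes (y axis, percent) in each of the 4 libraries (x axis). Hatched parts are members with a span of 20 kb and over, and the plain parts grow from 28.1% and 29.6% with DMSO to 47.1% and 53.2% with SGSS05-NS.

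Close relatives within the family were compared in each library, which cancels the scaling between libraries. KLF6 was lower than KLF7 in the DMSO libraries, with log2 ratios of -0.57 and -0.43 per kb of exon, and higher after treatment, with 1.09 and 1.51. The balance of this activating pair turned over, from a ratio of 0.707 to 2.46. KLF3 and KLF12, the CtBP-binding pair, turned over as well, from log2 ratios of -0.73 and -0.90 to 1.19 and 1.42. KLF9 stayed below KLF13, with log2 ratios of -3.56 and -3.09 with DMSO and -1.99 and -1.99 with SGSS05-NS. KLF10 and KLF11, both short, kept a ratio that overlapped between conditions, at 1.42 and 0.77 with DMSO and 1.04 and 0.91 with SGSS05-NS. KLF2 and KLF4 gave no ratio with DMSO, since both were at 0.

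**Figure D4:**
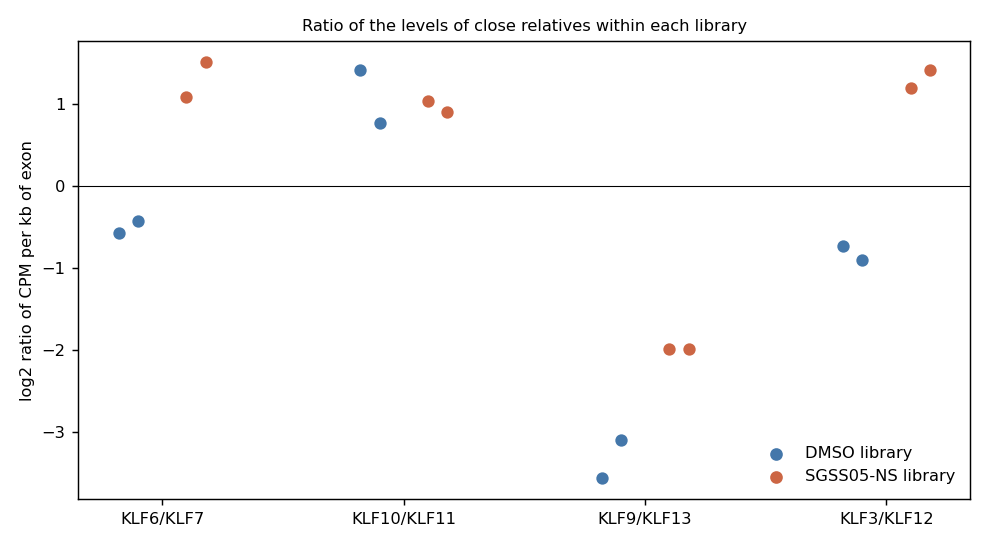
log2 ratio of the levels per kb of exon (y axis) of 4 pairs of close relatives (x axis), with 1 point per library. The ratio crosses 0 between DMSO and SGSS05-NS for KLF6 to KLF7 and for KLF3 to KLF12, while the points of KLF10 to KLF11 overlap.

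The rest of the family was taken from a list of 8 other KLF genes. KLF8 and KLF17 had 0 fragments in all 4 libraries, which allows up to 3 fragments in each, KLF14 and KLF18 were not analysed here, and the other 4 were tested. With edgeR 0 of the 4 were called, where 6.37% of all genes were called higher and 8.14% lower. With so few genes, 0 calls say little. At an unadjusted p under 0.05, 1 was higher, and even at an adjusted p under 0.05, 3728 of the 16468 genes were. DESeq2 and limma also called 0, while the likelihood ratio test called 1 higher, and 2022 over all genes. KLF5, a factor of dividing epithelial cells that was picked out here after its values were seen, had 23 and 25 fragments with DMSO and 47 and 75 with SGSS05-NS. The estimate was 1.42 on the log2 scale (SE 0.30, edgeR adjusted p = 0.0022). The median over the 4 genes was 0.27. Of the 9 SP genes, 5 were tested and 1 was called higher, where 6.37% of all genes were. This was SP6, a factor known from tooth and skin, with 4 and 9 fragments with DMSO and 35 and 35 with SGSS05-NS, or 2.49 on the log2 scale (SE 0.40, edgeR adjusted p = 0.00043), which DESeq2 did not call. SP6 passed the filter on low counts only through the SGSS05-NS libraries, so its call is a description and no support for a rise. SP1, SP2, SP3 and SP4, the widely expressed members, were not called, with log2 fold changes between -0.27 for SP4 and 0.13 for SP2, and the median over the 5 genes was 0.05.

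Among 14 co-regulators of KLF proteins, all of them tested, 1 was called higher and 1 lower, near the shares of 6.37% and 8.14% over all genes, and the median log2 fold change was -0.23. CTBP2, a corepressor that KLF3 and KLF12 recruit, was at 114 and 113 CPM with DMSO and fell to 71.7 and 68.8 CPM, a change of -0.69 on the log2 scale (SE 0.09, edgeR adjusted p = 9.1e-05). Its relative CTBP1 had a log2 fold change of -0.32 and was not called (adjusted p = 0.014, edgeR). FBXW7, the substrate-binding part of a ubiquitin ligase that acts on KLF proteins, was at 61.7 and 58.1 CPM with DMSO and rose to 104 and 97.3 CPM, a change of 0.75 (SE 0.09, edgeR adjusted p = 6.7e-05). SIN3A and SIN3B were not called, at -0.39 and -0.11.

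Of 15 genes known to act upstream of KLF genes, all tested, 1 was called higher and 1 lower, again near the 6.37% and 8.14% of all genes, with a median log2 fold change of -0.01. Both belong to the MEF2 factors, through which the kinase ERK5 is known to induce KLF2 and KLF4. MEF2D was at 19.2 and 23.1 CPM with DMSO and rose to 43.0 and 43.7 CPM, a change of 1.04 (SE 0.12, edgeR adjusted p = 2.9e-05). MEF2C was at 11.9 and 13.0 CPM and fell to 6.62 and 6.46 CPM, a change of -0.93 (SE 0.15, edgeR adjusted p = 0.00039). MAPK7 (the ERK5 gene), MAP2K5 and MEF2A, on the same list, were not called, with log2 fold changes of 0.14, -0.25 and -0.28. Of the hormone receptor genes described upstream of KLF9, NR3C1 (glucocorticoid receptor) was at 0.68 and missed the threshold (adjusted p = 0.0012, edgeR). The thyroid hormone receptor genes THRA and THRB went the other way, at -0.33 and -0.74. They were not called either (adjusted p = 0.020 and 0.15, edgeR).

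A list of 15 genes described as KLF targets had 9 members with enough counts. With edgeR, 3 were higher and 1 lower at an unadjusted p under 0.05. Even at an adjusted p under 0.05, 3728 of the 16468 genes were higher and 3903 lower. The likelihood ratio test called 2 of the 9 higher, DESeq2 and limma 1 each, and none of these tools called any lower. At the threshold of 0.001, edgeR called 0 lower (8.14% of all genes) and 1 higher (6.37%). This was CDKN1A (p21), a cell cycle inhibitor that KLF4 and KLF6 as well as p53 are known to activate, at 19.6 and 15.3 CPM with DMSO and 519.7 and 374 CPM with SGSS05-NS, a change of 4.68 on the log2 scale (SE 0.17, edgeR adjusted p = 5.2e-09). The median log2 fold change of the 9 genes was 0.17. TFAP2A, the target of KLF12, had at most 3 fragments in any library and was not tested. S1PR1, a KLF2 target singled out after its values were seen, had 1 and 3 fragments with DMSO and 11 and 19 with SGSS05-NS, and its ratio of 7.95 had an exact binomial 95% interval from 2.80 to 31.1, for counting error only. It missed the threshold (adjusted p = 0.0021, edgeR). S1PR1 passed the filter on low counts only through the SGSS05-NS libraries, so these values describe it and are no support for a rise.

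Genes with the pattern most like that of a member were looked up over the 4 libraries, by the distance between their centred log2 CPM values. For KLF12 these were NLGN4X, JAZF1 and UNC5C, at distances of 0.0406, 0.120 and 0.156 on the log2 scale, with log2 fold changes of -1.98, -1.96 and -2.10. Their spans were 388, 350 and 387 kb. For KLF9 the nearest were ATG16L2, MALAT1 and GLIS2, at distances of 0.0661, 0.0673 and 0.0881, with log2 fold changes of 1.10, 1.11 and 1.19 and spans of 29.3, 10.4 and 24.8 kb. With 4 libraries in 2 conditions, such a match mostly means a change of like size.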

How the data were processed

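RNA of SY5Y cells was measured in 4 libraries, 2 with DMSO and 2 with SGSS05-NS, grouped by their labels. The authors trimmed paired reads (Trimmomatic 0.30), aligned them to hg19 with STAR 2.4.2a and GENCODE gene models, and deposited unnormalized, unpooled counts (fragments per gene) in 3 columns (1 without regard to strand, 1 for each strand). The submitters' processing notes also name edgeR 3.10.5. The reverse-strand column was used here, since the other strand held 4.64% to 5.05% of the stranded fragments on genes. The 4 summary rows per file (unmapped, several places, no feature, ambiguous) were left out, and ambiguous fragments made up 2.32% to 2.58%. Multimapped fragments are not counted, which can lower genes with pseudogenes. The 8 processed pseudogenes of KLF2, KLF3, KLF4 and KLF7 that are listed had at most 12 fragments in any library.

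Symbols, positions, spans and exon lengths are from GENCODE 44 on GRCh37. Of the 57820 identifiers, 2282 had no entry, holding 4.52% of the counts. edgeR 4.0.16 in R 4.3.3 (filterByExpr, TMM, quasi-likelihood test, no covariate) was fitted on all 16468 genes kept. The methods name the likelihood ratio test, which was an alternative, as were DESeq2 1.42.0, limma 3.58.1 (voom), other scalings and filters, counts without strand, the replicate number as a block, an adjusted p of 0.05 and each library left out. The standard error is the log2 fold change divided by the square root of F, and intervals use its degrees of freedom. Levels per kb use merged exons of GENCODE 44, while the paper names an earlier GENCODE release for the counts. The exons behind a length are therefore not all known to be exons that were counted. On simulated counts for this comparison (16468 genes, 200 changed), 70% of genes changed 2-fold and 89% of those changed 4-fold were recovered, with 1 false call. In the data far more genes were called, 1049 higher and 1341 lower, so these recovery rates need not hold there. Replicates of a condition differed by more than counting noise (chi-square per degree of freedom 8.76 and 11.8). With 2 libraries per condition, the spread of a gene is mostly estimated from other genes, and intervals on counts cover counting error only.

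The members and gene lists were chosen with earlier results of these data known, so their counts are descriptions. The text names all 10 members, the called members of each list (at most 2 in each direction) and KMT5A. It also names the 3 genes nearest in pattern to the members with the highest and lowest change. Genes named as picked after their values were seen, marker genes, relatives given for contrast and other uncalled genes given for context are outside this rule. Of the listed genes, KLF14, KLF18, TXNIP, CCL5 and PECAM1 had no identifier match and were not analysed here.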

Additional observations from a re-analysis of the deposited data

How the results depend on the processing

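The direction of each of the 8 tested KLF genes was the same in all 14 alternatives run for it. KLF6, KLF9 and KLF12 passed their threshold in each of them, KLF3 and KLF13 in none, and KLF7 in all but scaling by library size alone. The number of KLF genes called higher, 2 in the report, was 4 with the likelihood ratio test, with the replicate number as a block, without a filter and at an adjusted p under 0.05, since KLF10 and KLF11 were added, and 3 with DESeq2, which added KLF10. The number called lower, also 2, was 1 with scaling by library size alone. Over all genes, 1049 were called higher and 1341 lower. The likelihood ratio test gave 2022 and 2267, no filter 2034 and 2570 and an adjusted p under 0.05 gave 3728 and 3903. With the replicate block, 1759 were higher. The replicate numbers are shared by the labels only, and the differences between replicates 1 and 2 of the conditions correlated at 0.06 across genes. With each library left out in turn, where the condition with 1 library is assumed to vary like the other, 2 to 4 members were called higher and 2 lower. The median log2 fold change of the members under 20 kb then lay between 0.51 and 1.05, and that of the members of 20 kb and over between -0.29 and -0.12. With a limit of 50 kb, the median of the longer members was -0.89, because KLF3 and KLF9 then count as short. The share of the KLF level held by members under 20 kb with DMSO was 28.8%, and 30.6% when the length of the canonical transcript was used, an alternative chosen after seeing the data.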

Other observations

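A few transcripts overlap the KLF genes. KLF7-IT1, annotated within KLF7 on the same strand, had 21 and 19 fragments with DMSO and 17 and 17 with SGSS05-NS. On the strand opposite to KLF7, 37 and 19 fragments were counted with DMSO and 40 and 32 with SGSS05-NS. KLF3-AS1, which overlaps KLF3 by 730 bases on the opposite strand, had 23 and 27 fragments with DMSO and 22 and 20 with SGSS05-NS.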
